A study of Triticum aestivum with 4 samples.

Results

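In young seed of bread wheat, 85 of 61115 wheat probe sets were bright in the genotype AC Domain and near the array background in the genotype RL4452. They were chosen by their measured intensities: at least 7 on the log2 scale on both AC Domain arrays, called on here, and at most 5 (an intensity of 32) on both RL4452 arrays, called off. Values are intensities on a linear scale except where the log2 scale is named. AC Domain and RL4452 are the parents of a mapping population of Triticum aestivum and were grown in the field together with that population. Seed was collected 5 days after anthesis, and there were 2 biological replicates per genotype, each on 1 Affymetrix wheat array, so that 4 arrays were compared. Neither genotype carried a treatment, and each sample pooled the whole developing seeds that filled a tube, so that pericarp, endosperm and embryo were measured together.

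Bread wheat carries the related genomes A, B and D, and most of its genes therefore exist as closely similar copies, the homoeologues. A difference of transcript level between genotypes is called an expression level polymorphism and can be mapped in their offspring. Seed of this age has a green, growing pericarp and an endosperm that is only beginning to form cells and starch. A probe set is a group of short oligonucleotides made from 1 source sequence, so that a low intensity says only that little labelled RNA bound to those oligonucleotides. Names of this array give the transcript cluster first and then the sub-cluster: Ta.1725.3 is sub-cluster 3 of the cluster Ta.1725. The oligonucleotide sequences of the members were not used here.

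The array medians lay between 31.9 and 33.7, so that the off level of 32 is close to the middle of an array. The 95th percentile of 23 negative control probe sets was an intensity of 22.3, which is taken as the level of background, and the highest negative control value was 30.4. Of 4 probe sets for the endosperm genes GBSS-I, AGP-S and AGA.1, 3 were above background on all 4 arrays, and their summed intensity was 2238 and 2304 in AC Domain and 3679 and 3031 in RL4452. Of 4 probe sets for RAFTIN genes of the anther, 1 was above background on all 4 arrays, and of 10 for genes of the maturing embryo, 3 were. The list of rbcl for the green pericarp had 6 of 28 above it, with summed intensities of 52631 and 50839 in AC Domain and 49267 and 48515 in RL4452. That of histone and tubulin genes had 28 of 28, with sums of 104756 and 100718 in AC Domain and 113123 and 120329 in RL4452. None of the members is in these 5 marker lists. The 18S rRNA control probe set read 2586 and 1914 in AC Domain and 191 and 432 in RL4452, and its part in the members' difference was not tested. The run file of the RL4452 replicate 2 array records an aborted wash. On this array the control probe set for the 5' end of G-6-PDH read 145, against 387 to 541 on the other arrays, while that for the 3' end read 1761 against 1549 to 1970. For sucrose synthase the middle probe set read 238 against 828 to 1101, the 5' one 21.4 against 45.3 to 95.1 and the 3' one 2169 against 2460 to 4572. The part of this in the results was not tested. Without this array the rule found 124 members, against 111 without RL4452 replicate 1. A rule on fewer arrays can only add members, so that these counts do not show that part.

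**Figure D1:**
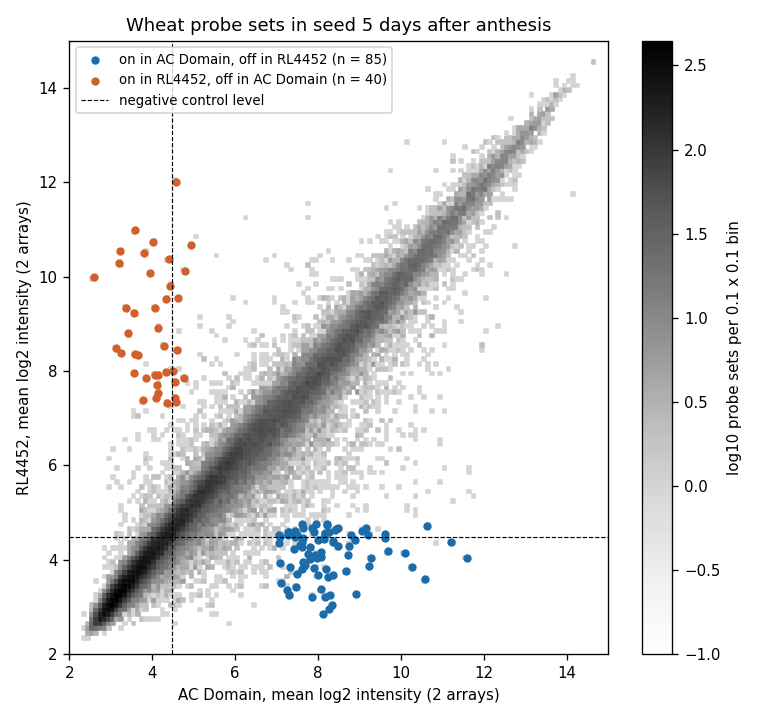
Mean log2 intensity of each genotype (2 arrays each) over 61115 wheat probe sets, shown in grey as the number of probe sets per bin. Blue points are the 85 probe sets on in AC Domain and off in RL4452, orange points the 40 of the mirror rule, and dashed lines mark the negative control level of 4.48.

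Only 2 of the 85 members have a gene in the annotation, LOC542839 and LOC543235. Both are protein-coding entries without a descriptive symbol, so that no function is given for them here. LOC542839, measured by Ta.224.1.S1_at, read 542 and 648 in AC Domain and 22.4 and 23.4 in RL4452. The RL4452 arrays agreed to within about 1 unit and sat just above the background level of 22.3. LOC543235, measured by Ta.192.1.S1_at, had 510 and 555 in AC Domain and 19.0 and 31.2 in RL4452. Here the RL4452 arrays lay on either side of the background level. On the log2 scale LOC542839 had 9.21 ± 0.18 against 4.52 ± 0.05 and LOC543235 had 9.06 ± 0.09 against 4.61 ± 0.51 (SD, n = 2). Each gene has 1 probe set on the array and each of these probe sets is alone in its cluster, so that neither gene could be checked with a second probe set. The remaining 83 members have no gene here. The annotation names 2.08% of all wheat probe sets, 4.34% of those on in AC Domain and 2.35% of the members.

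The brightest member was Ta.28744.1.S1_at, with 2875 and 3327 in AC Domain and 17.5 and 15.5 in RL4452. Since both RL4452 arrays were below background, AC Domain was at least 139-fold brighter, as measured against the background level. Ta.1725.3.S1_at had 2794 and 2026 in AC Domain and 13.8 and 31.4 in RL4452. Its RL4452 arrays were 2.28-fold apart, the widest gap among the members. With the dimmer of them set to background, AC Domain was at least 89.9-fold brighter. Ta.23366.2.S1_at followed with 1708 and 1462 against 22.1 and 31.3. TaAffx.105083.1.S1_at (1452 and 1591 against 11.2 and 12.9) and Ta.22681.1.S1_at (1049 and 1468 against 14.4 and 14.4) were below background on both RL4452 arrays. They were at least 68.2-fold and at least 55.7-fold brighter in AC Domain. These 5 were the members with at least 10 on the log2 scale on both AC Domain arrays. Ta.28479.1.S1_at (913 and 1316), Ta.4547.1.A1_at (851 and 813), TaAffx.109191.1.S1_at (844 and 726) and Ta.3369.1.S1_at (807 and 762) came next in AC Domain, with RL4452 arrays between 13.6 and 31.0. Ta.4525.1.A1_at, Ta.3527.1.S1_at and Ta.6215.1.A1_at completed the 12 brightest members without a gene, with AC Domain arrays between 554 and 643.

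Most members were of moderate brightness in AC Domain. The intensities ran from 129 to 2875 on the replicate 1 array (median 258) and from 128.1 to 3327 on the replicate 2 array (median 254). In RL4452 they ran from 6.69 to 31.8 (median 17.5) and from 6.97 to 31.6 (median 20.1). The dimmer AC Domain array was at least 4.28 to 129 times as bright as the brighter RL4452 array, with the latter set to background where it was below, and by the rule no member's genotypes overlapped. The geometric mean over the AC Domain arrays had a median of 267 over the members and of 429 over the 15677 probe sets that were on in AC Domain. A log2 intensity of at least 8 on both AC Domain arrays was reached by 37.6% of the members and by 67.5% of those 15677.

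In RL4452, 43 members were at or below background on both arrays, 30 on 1 of the arrays and 12 on neither. In whole seed, fewer cells with a transcript and less of it per cell cannot be told apart. The median difference, RL4452 minus AC Domain, was -3.81 on the log2 scale with all values as measured, against a median of 0.05 over all wheat probe sets. With every RL4452 value below background set to it, AC Domain was at least 11.1-fold brighter in the median, and 64 members were at least 8-fold, 21 at least 16-fold and 8 at least 32-fold brighter. The replicate 1 arrays shared 1 project in the run files and the replicate 2 arrays the other. With the same floor, the median difference was -3.49 within the first and -3.39 within the second, and the ranges were -7.01 to -2.40 and -7.22 to -2.22, as lower bounds on the size where RL4452 was below background.

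**Figure D2:**
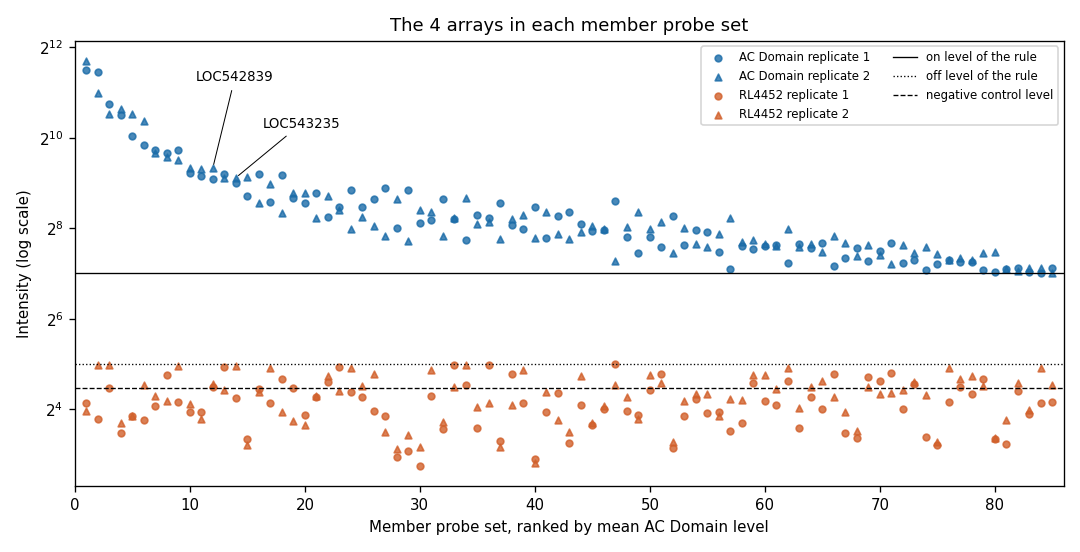
Intensity on each of the 4 arrays (log scale) for the 85 members, ranked by mean AC Domain level, with the on level (7 on the log2 scale), the off level (5) and the negative control level of 22.3 as lines. The RL4452 points stay between 6.69 and 31.8 along the whole ranking, while the AC Domain points fall from 3327 to the on level.

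Replicates of a genotype were close in most members. The brighter AC Domain array was a median of 1.17 times the dimmer one, with 48 members brighter on replicate 2 and 37 on replicate 1. The gap exceeded 2-fold in 4 members, which are named after their values were seen: both members of Ta.4747 (459 and 211, 472 and 227), Ta.28112.1.S1_at (388 and 155) and Ta.5331.1.A1_a_at (136 and 299). Between the RL4452 arrays the median gap was 1.28-fold, and 68.2% of the members were brighter on replicate 2, against 59.8% of the 28041 probe sets that were off in RL4452. In the fit across all probe sets (limma, adjusted p under 0.05), 83 of the 85 members were called lower in RL4452, where 0.576% of all probe sets were, and 0.800% were called in either direction. The rule used the same values, so that nothing is read from that count. The 2 not called were Ta.28112.1.S1_at and Ta.5331.1.A1_a_at, with differences of -3.18 and -3.79. Left with 1 AC Domain array, the fit lost the calls of the members. Their median difference was then -3.93 without AC Domain replicate 1 and -3.79 without AC Domain replicate 2. These are the values that chose the members, so that nothing is read from them.

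Probe sets lay close on both sides of each level of the rule. Just inside the on level were Ta.18397.1.A1_at, 0.142 intensity units above it on its dimmer AC Domain array, and Ta.11112.1.S1_at, 0.518 above. Just outside were Ta.25880.1.A1_at, 0.00488 below, and Ta.1293.1.S1_at, 1.17 below. Just inside the off level were Ta.28112.1.S1_at, 0.178 below it on its brighter RL4452 array, and Ta.2278.2.S1_x_at, 0.357 below. Just outside were Ta.9332.3.S1_x_at, 0.448 above, and Ta.9332.2.A1_x_at, 0.607 above. The last of these had 1161 and 1416 in AC Domain, so that a bright probe set with a similar pattern was left out by less than 1 unit.

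The mirror rule, on in RL4452 and off in AC Domain, found 40 probe sets in 37 clusters. The members were 0.542% of the probe sets on in AC Domain, and the mirror probe sets 0.276% of the 14492 on in RL4452. The order of the counts depended on the on level. With the off level kept, 168 probe sets were on in AC Domain alone and 77 in RL4452 alone at an on level of 6 on the log2 scale. The counts were 32 and 23 at a level of 8, 13 and 16 at 9, and 5 and 7 at 10. The order also depended on the off level. With an off level of 6, AC Domain had more at 9 (29 and 20) and at 10 (13 and 8), and with an off level of 4 it had fewer at 8 (7 and 11). At an on level of 7, AC Domain had more at both of these off levels (197 and 76 at 6, 23 and 15 at 4). The numbers among the brightest are small and were not tested.

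**Figure D3:**
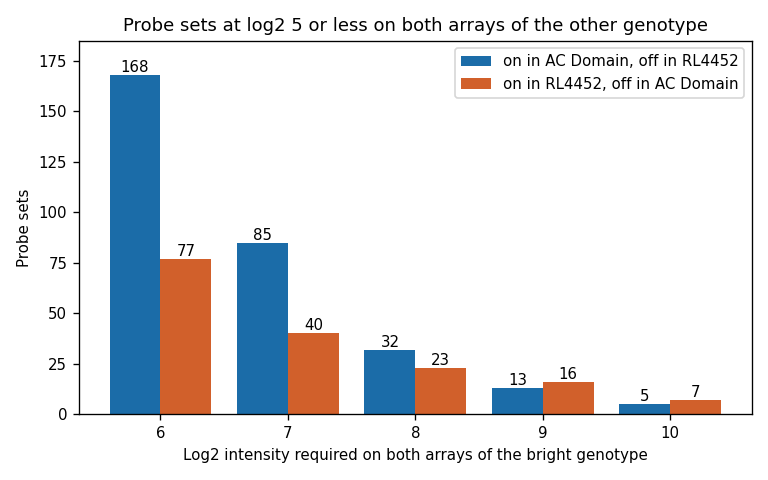
Number of probe sets at 5 or less on the log2 scale on both arrays of one genotype, by the log2 intensity required on both arrays of the other. Blue bars, on in AC Domain, exceed orange bars, on in RL4452, at 6 (168 and 77), 7 (85 and 40) and 8 (32 and 23), but not at 9 (13 and 16) or 10 (5 and 7).

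The kinds of probe set among the members were set beside those of all probe sets on in AC Domain. Probe sets with the plain suffix _at made up 85.9% of the members (73 of 85), 59.4% of the probe sets on in AC Domain and 79.2% of all wheat probe sets. The suffixes _s_at and _x_at mark probe sets with oligonucleotides that can match other transcripts. They made up 10.6% of the members (9 of 85) and 26.8% of the probe sets on in AC Domain. In the mirror set the shares were 75.0% for _at and 15.0% for _s_at and _x_at. The orientation letter A stood in the names of 34.1% of the members, 30.0% of the mirror set and 18.8% of the probe sets on in AC Domain. These shares are descriptions, with no test.

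The 85 members came from 78 transcript clusters. In 73 clusters there was 1 member, and 5 clusters held 12 members between them. Ta.10236 had 4 members from 2 sub-clusters, which are all of its probe sets on the array. Of these, Ta.10236.1.A1_at read 175 and 329 in AC Domain and 14.6 and 13.7 in RL4452, and Ta.10236.2.S1_at read 194 and 207 against 13.0 and 18.3. The _a_at and _x_at probe sets of sub-cluster 2 read 131 and 178, and 135 and 192, in AC Domain. So both sub-clusters of Ta.10236 were bright in AC Domain and below background in RL4452. Ta.11112 had 2 members from 2 sub-clusters, Ta.11112.1.S1_at and the brighter Ta.11112.3.S1_at (199 and 255 against 14.4 and 18.2). Ta.10549, Ta.18011 and Ta.4747 each had an _at and an _x_at member of 1 sub-cluster, which can share oligonucleotides and are not independent of each other. Of the 78 clusters, 50 (64.1%) have no other probe set on the array, against 57.5% of the 11219 clusters with a probe set on in AC Domain. For these 50 nothing further could be compared.

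In 26 clusters there were non-member probe sets, which show whether the rest of a cluster was also dim in RL4452. They numbered 53, measured on the same arrays: 13 of the same sub-cluster as a member and 40 of another sub-cluster. Another sub-cluster means, here and below, a sub-cluster without any member. All 13 of the same sub-cluster were brighter on both AC Domain arrays than on either RL4452 array, where 15.9% of all probe sets were. They can share oligonucleotides with members chosen on these arrays, so that they are not independent of the rule and nothing is read from that count. Their median difference was -3.21, and limma called 8 of them lower in RL4452, where 0.576% of all probe sets were. Without either AC Domain array these calls were lost. The 3 of the 13 that were on in RL4452 were Ta.29895.1.A1_s_at (493 and 571 in AC Domain, 474 and 414 in RL4452), Ta.1454.3.S1_x_at (155 and 211, 137 and 145) and Ta.28520.1.S1_s_at (435 and 493, 192 and 214). All 3 carry the suffix _s_at or _x_at, and they were named after their values were seen.

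Probe sets of another sub-cluster were split. Of the 40, 20 (50%) were on in RL4452, 13 were off in RL4452 and 7 lay between these levels. In all clusters with a probe set on in AC Domain, 35.1% of 7595 probe sets of a further sub-cluster were on in RL4452. The 40 leave out every sub-cluster with a member. These shares are therefore not counted alike, and nothing is read from their difference. Among the 20, 13 carry the suffix _s_at or _x_at, and 7 of the 21 without these suffixes were on (33.3%). The median difference of the 40 was -0.21, and it ran from -3.14 to 4.21. Both AC Domain arrays were above both RL4452 arrays in 21 (52.5%, against 15.9% of all probe sets), and both RL4452 arrays were above in 10, where 24.0% of all probe sets were. limma called 9 of the 40 lower, where 0.576% of all probe sets were called lower, and 1 higher, where 0.224% were. Several of the 40 share a cluster, so that they are not independent. The suffix _s_at or _x_at stood on 19 of them, and whether these bound transcripts of the members was not tested. Of the 21 without these suffixes, limma called 4 lower and 1 higher. Both AC Domain arrays were above both RL4452 arrays in 10 of these 21 (47.6%). Without either AC Domain array the calls among the 40 were lost.

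Of the 23 clusters with a sub-cluster without any member, 9 (39.1%) had such a sub-cluster on in RL4452. Ta.10236 is not among the 23, since both of its sub-clusters held members, all off in RL4452. The share was 42.4% over the 4002 clusters with a probe set on in AC Domain and a further sub-cluster. These were counted from the sub-cluster that was brightest in AC Domain. The 9 were counted from the member's sub-cluster, which was not always the brightest in AC Domain. These shares are therefore not counted alike, and nothing is read from their closeness. In 7 of the 23 every probe set of another sub-cluster was off in RL4452, and in 7 none was on and at least 1 lay between the levels. Of the 13 probe sets of another sub-cluster that were off in RL4452, 7 were off in AC Domain too. None of the 13 could be on there, since the rule would make it a member. Without RL4452 replicate 2, where the rule takes more members, 16 clusters had another sub-cluster on in RL4452, and without RL4452 replicate 1 it was 14. Among the 22 probe sets of another sub-cluster that were on in AC Domain, 18 (81.8%) were on in RL4452 too, against 84.7% in all clusters with a probe set on in AC Domain. The rule makes a probe set that is on in AC Domain and off in RL4452 a member, so that none of the 22 could be off. Nothing is read from the closeness of 81.8% and 84.7%.

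**Figure D4:**
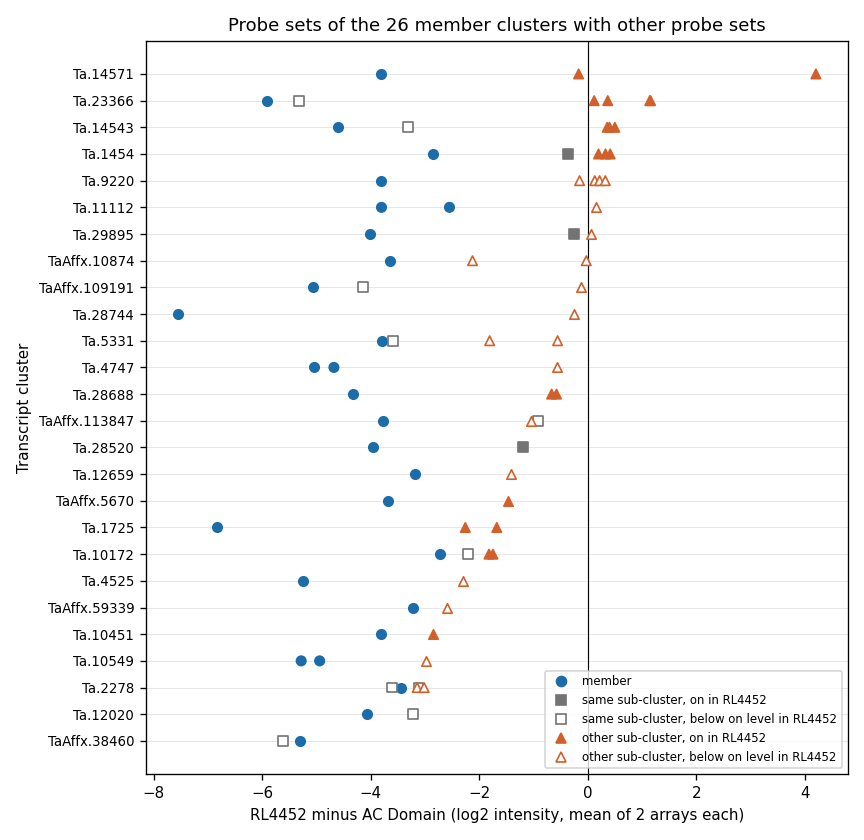
Difference between the genotypes (RL4452 minus AC Domain, log2, means of 2 arrays each) for each probe set of the 26 member clusters with other probe sets. Members are blue circles, probe sets of the same sub-cluster grey squares and probe sets of another sub-cluster orange triangles, filled where on in RL4452. With values below background left as measured, members lie between -7.56 and -2.55, and the triangles spread from -3.14 to 4.21.

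In 5 of the 9 clusters another sub-cluster was on in both genotypes with a difference between -0.66 and 1.16 on the log2 scale. In Ta.14543 the member Ta.14543.2.A1_at read 406 and 436 in AC Domain and 22.2 and 13.4 in RL4452. The far brighter Ta.14543.1.S1_a_at read 2407 and 3421 in AC Domain and 2951 and 4865 in RL4452 (difference 0.40 ± 0.32 on the log2 scale, standard error; limma adjusted p = 0.763). Ta.14543.1.S1_x_at and Ta.14543.3.S1_x_at had differences of 0.50 and 0.36 (limma adjusted p = 0.674 and 0.664). In Ta.1454 the member read 155 and 199 against 26.3 and 22.4. Its other sub-clusters differed by 0.33 (Ta.1454.2.S1_at), 0.41 (Ta.1454.2.S1_x_at) and 0.20 (Ta.1454.1.S1_x_at), with limma adjusted p between 0.632 and 0.768. In Ta.28688 the member read 244 and 264 against 12.6 and 12.9, while Ta.28688.2.S1_x_at (2932 and 2952 against 1453 and 2370) and Ta.28688.3.S1_x_at (1891 and 1948 against 1060 and 1566) were bright in both genotypes. Their differences of -0.66 and -0.57 did not pass (limma adjusted p = 0.575 and 0.578).

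Ta.14571 held 3 sub-clusters with 3 patterns. The member Ta.14571.2.A1_at read 223 and 261 in AC Domain and 15.4 and 19.3 in RL4452. Ta.14571.1.S1_at went the other way, with 32.5 and 19.2 in AC Domain and 320 and 666 in RL4452. Its difference was 4.21 ± 0.44 (log2, standard error; limma adjusted p = 0.0352), and it was the only 1 of the 40 called higher. Under a replicate block for the project its adjusted p was 0.0558, so that the call was lost, and without AC Domain replicate 1 or 2 it was 0.254 and 0.368. Ta.14571.3.S1_x_at was on in both genotypes, with 781 and 793 against 693 and 709 (difference -0.17 ± 0.16; limma adjusted p = 0.801). Ta.14571.1.S1_at missed the mirror rule because its AC Domain replicate 1 array was at 32.5, and 0 of the 78 member clusters held a probe set of the mirror rule.

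Ta.23366 also held members and other sub-clusters of opposite sign. The member Ta.23366.2.S1_at had a difference of -5.91, and its partner Ta.23366.2.S1_x_at read 1501 and 1195 against 26.6 and 42.0. Ta.23366.3.A1_at read 311 and 254 in AC Domain and 683 and 565 in RL4452, and Ta.23366.3.A1_x_at 279 and 234 against 637 and 510. Both RL4452 arrays lay above both AC Domain arrays, with differences of 1.14 and 1.16, but neither passed (limma adjusted p = 0.137 for both). Ta.23366.1.S1_x_at differed by 0.12, with overlapping genotypes.

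In the other 4 of the 9 clusters the sub-cluster that stayed on was dimmer in RL4452, too. In Ta.1725, Ta.1725.1.S1_at read 1519 and 1475 against 361 and 273, a difference of -2.26 ± 0.20 (log2, standard error; limma adjusted p = 0.0238). Ta.1725.2.S1_at read 1000.4 and 1084 against 173 and 614, and its RL4452 arrays were apart from each other (difference -1.68; limma adjusted p = 0.509). Its difference was -2.59 without RL4452 replicate 2, where it was called, and -0.76 without RL4452 replicate 1. In Ta.10451, Ta.10451.2.A1_x_at read 1188 and 1639 against 166 and 223 (-2.86; limma adjusted p = 0.0230). In Ta.10172, Ta.10172.2.S1_x_at and Ta.10172.3.A1_x_at had -1.82 and -1.75 (limma adjusted p = 0.0312 and 0.0309). In TaAffx.5670, TaAffx.5670.2.S1_s_at read 752 and 1086 against 265 and 399, a difference of -1.48 that did not pass (limma adjusted p = 0.187).

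**Figure D5:**
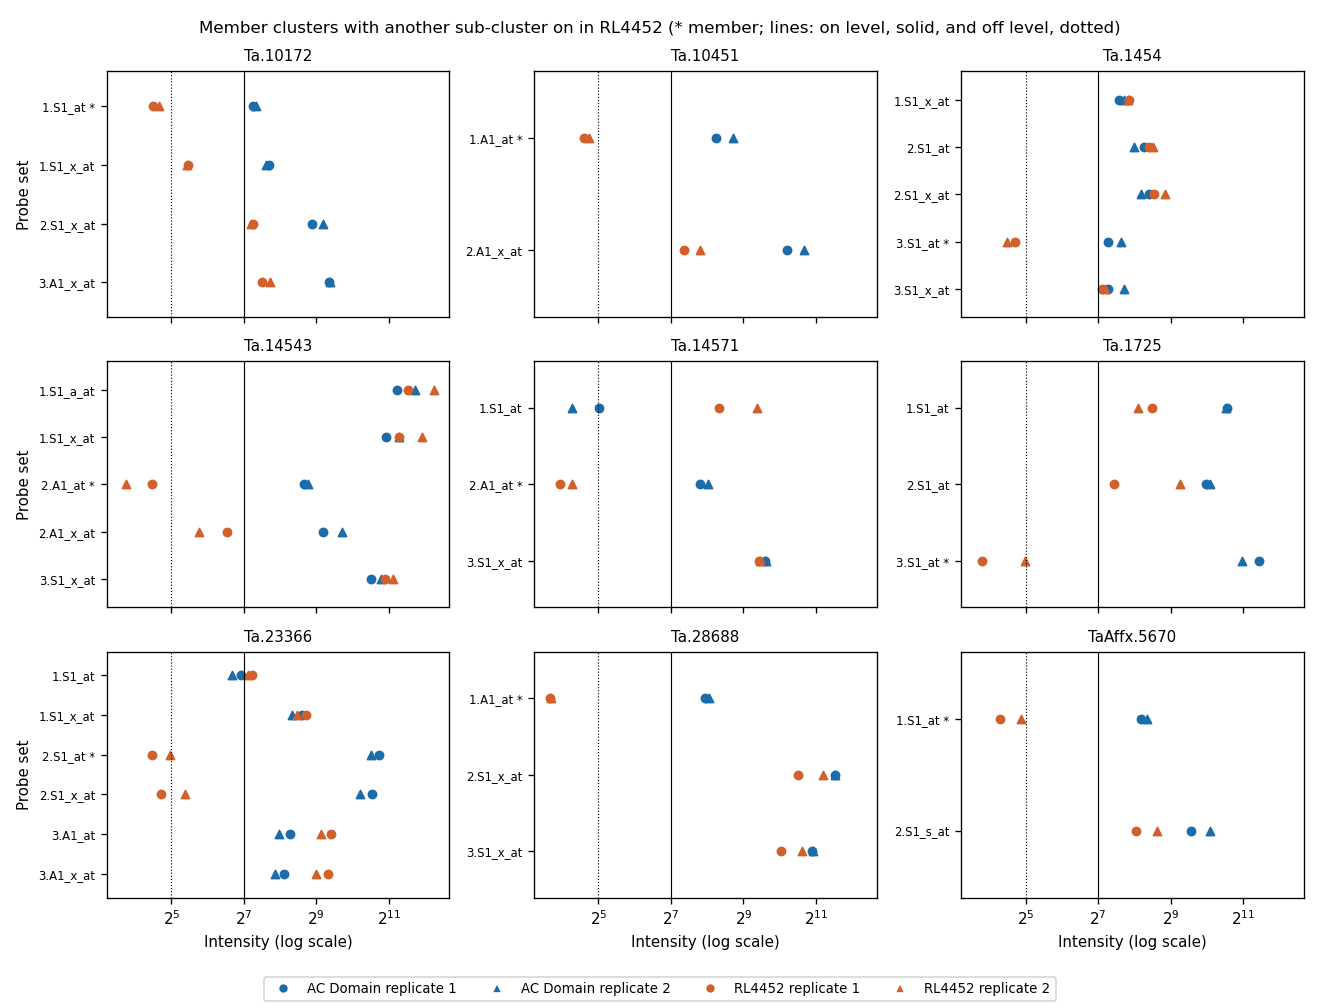
Intensity on each array (log scale) for every probe set of the 9 member clusters with another sub-cluster on in RL4452. Members carry an asterisk, and the lines mark the on level and the off level. In all 9 clusters the RL4452 points of other sub-clusters lie above the on level, and Ta.14571.1.S1_at is bright in RL4452 alone.

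Among the clusters whose other sub-clusters were below the on level in RL4452, the size of the difference varied. Ta.4525.2.S1_at, next to the member Ta.4525.1.A1_at, read 88.8 and 87.0 in AC Domain and 15.6 and 20.7 in RL4452 (-2.29; limma adjusted p = 0.0228). TaAffx.59339.2.S1_at was brighter than its member, with 445 and 422 against 61.3 and 84.9 (-2.59; limma adjusted p = 0.0201). In Ta.2278 the probe sets of sub-clusters 1 and 3 had -3.14 and -3.01 (limma adjusted p = 0.0552 and 0.0368), close to the member's -3.45. The brightest member, Ta.28744.1.S1_at, had a dim partner in Ta.28744.3.S1_a_at, which read 128.1 and 129 in AC Domain and 95.7 and 123 in RL4452 (-0.24; limma adjusted p = 0.762).

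Ta.29895 was the only member cluster with a non-member probe set that has a gene. Ta.29895.2.A1_at belongs to LOC780594, whose synonym PMM is the symbol of phosphomannomutase, an enzyme that supplies mannose phosphate for sugar nucleotides and ascorbate. It read 105 and 89.5 in AC Domain and 102 and 101 in RL4452, so that the genotypes overlapped (difference 0.06; limma adjusted p = 0.948). The member Ta.29895.1.A1_at of the same cluster read 307 and 233 in AC Domain and 20.5 and 13.6 in RL4452. The probe set of the same sub-cluster with the suffix _s_at stayed at 474 and 414 in RL4452, as given above. Whether the member measures the PMM gene is not given in the annotation.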

How the data were processed

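The intensities were deposited as the authors' RMA values, per the submitters' processing notes, with no version stated. RMA subtracts background, brings the arrays to a common distribution and combines the oligonucleotides of a probe set. The values were linear, from 4.74 to 25900, and the set of arrays normalised with each other is not given in the sources used. They were taken to log2 with no further scaling. Control probe sets (175) were dropped, and 61115 wheat probe sets were fitted in limma 3.58.1 (R 4.3.3; lmFit, eBayes). The model held genotype alone, tests were two-sided, and p-values were adjusted by Benjamini-Hochberg over all of them. The number of arrays limits the precision: with 2 arrays on each side the smallest p of an exact permutation test is 0.333. An error after ± is an SD of 2 arrays or, where said, a standard error.

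The members and lists were chosen with earlier results of these data known. Beside the members with a gene, the text names the 12 brightest members without one, the probe sets next to each level of the rule, clusters with several members, and probe sets of other sub-clusters that were on in both genotypes or higher in RL4452. Others were named after their values were seen. Genes came from a platform annotation table (1273 probe sets with 1 gene, 0 with several, 59842 with none), and both member genes were found in the RefSeq table of the assembly IWGSC CS RefSeq v2.1.

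Replicate numbers pair the arrays through the project named in the instrument's run files. Deviations from the genotype means correlated between arrays of the same number (r = 0.398 over probe sets, which are no independent replicates). Alternatives were other levels of the rule, other scalings, a filter on dim probe sets, an intensity trend, the replicate block and leaving out each array.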

Additional observations from a re-analysis of the deposited data

How the results depend on the processing

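The number of members depended on the levels of the rule, by its construction: 168 with an on level of 6 on the log2 scale, 32 with 8, 43 with the off level at the negative control level and 197 with an off level of 6. It was 83 after quantile normalisation, 88 after median centring and 95 to 124 when 1 array was left out, which can only add members. With the replicate number as a replicate block limma called 667 of all probe sets against 489, 84 members against 83 and 19 against 18 of the other probe sets in member clusters. Beside Ta.14571.1.S1_at, Ta.12659.2.S1_a_at lost its call under the block (limma adjusted p = 0.0535 against 0.0428) and with an intensity trend (0.0519). When 1 array was left out, limma called 0 to 1031 of all probe sets, 0 to 84 members and 0 to 22 of the other probe sets. The 0 came without either AC Domain array, where the spread was that of the RL4452 pair alone. Clusters with another sub-cluster on in RL4452 numbered 9 to 16 when 1 array was left out and 5 without _s_at and _x_at probe sets. Over the 27 named members and partners, 1 difference changed sign: that of Ta.23366.1.S1_x_at ran from -0.019 (AC Domain replicate 2 left out) to 0.26 and was -0.0088 with RL4452 replicate 1 left out, against 0.12. Calls were lost in 31 other cases, 15 without each AC Domain array and 1 under the block. Ta.1725.2.S1_at was called without RL4452 replicate 2 (-2.59). The number of arrays limits what can be called, and below an intensity of 22.3 the order of levels has no meaning.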
